A study of Sus scrofa with 12 samples.

Results

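The enzymes of glycolysis and glycogen breakdown described here are all probe sets whose single gene symbol in the platform annotation is PYGM, PGM1, GPI, PFKM, ALDOA, TPI1, GAPDH, PGK1, ENO3 or LDHA. Of 24123 probe sets on the array, 25 met this rule and covered 9 of the 10 genes; for ALDOA the annotation used here names no probe set by that symbol alone. PYGM had 4 probe sets and GAPDH 5, and the other 7 genes had 1 each, which makes 16 probe sets that were tested. The remaining 9 are manufacturer's control probe sets for GAPDH, which were read as values with no test.

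Glycolysis and glycogen breakdown supply the ATP of skeletal muscle once oxygen runs out, and they are the pathways by which a muscle forms lactate after slaughter. Their enzymes are among the most abundant soluble proteins of fast fibres.

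The muscle was the semimembranosus of the hind leg, taken from the left legs of 3 pigs, all female commercial hybrids weighing about 160 kg and stunned with CO2 at 87%. Each pig gave a portion of 3 to 5 g at 20 min, 2 h, 6 h and 24 h after death while the carcass was chilled towards 4 °C. The 12 portions went to 12 one-colour arrays, so that each time holds the same 3 pigs and no live muscle serves as a baseline. All values are log2 intensities normalised together by RMA, and the later time is given as a difference from the earlier one in the same pig. The number of arrays limits the precision. With pig as a block, the test's spread is what is left after pig and time, drawn towards a spread shared by all probe sets. The 3 pigs came from 1 farm and 1 abattoir.

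The portions carried the defining transcripts of skeletal muscle. All 5 muscle fibre markers found (CKM, DES, MYL1, MYLPF and TTN) had a mean at percentile 99.6 or higher among probe sets. The mean log2 level of 6 fast fibre markers lay between 14.03 and 14.14 in all 12 arrays. It was highest in the 20 min array of pig 3 and lowest in the 24 h array of that pig. The mean of 7 slow fibre markers lay between 13.48 and 14.00, with the 20 min array of pig 3 the lowest at 13.48. Markers of other cell types differed between portions. Pig 3 had the highest mean of 4 macrophage markers at 20 min (7.43) and the lowest at 24 h (5.67). Its mean over 4 adipocyte markers was likewise the highest of all 20 min arrays, at 7.70. In a bulk portion, fewer fibres of a type and less RNA per fibre cannot be told apart.

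None of the 16 enzyme probe sets passed the test in any comparison of times over the 24 h after death. In limma's F test over the 4 times with pig as a block, 0 of 16 had an adjusted p under 0.05, while 0.00417% of all 23999 probe sets did. The count at an unadjusted p under 0.05 was 1 of 16, which is 6.25%, against 8.22% of all probe sets. Taking for each gene the probe set with the highest mean, the largest of the 54 log2 differences over 6 comparisons of times was 0.20 in size, or 1.15-fold. Over all 16 probe sets the largest was 0.39 in size, or 1.31-fold, in a dimmer PYGM probe set. At 24 h against 20 min, the 95% intervals of 15 of the 16 lay within 1.5-fold, as did those of 93.3% of all probe sets. Over all 6 comparisons 92 of 96 did, with bounds from 0.552-fold to 1.75-fold. An interval within a limit does not show that a transcript was constant.

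The high level of these transcripts bears on how a difference is read. A probe set near the top of an array's range has little room left, and a difference there may be understated. Of the 16 probe sets, 13 had a mean at or above 12.75, the 99th percentile of all probe sets tested. The brightest GAPDH probe set averaged 14.55 and lay 0.26 below the highest value of its array on average. ENO3 lay 0.47 below it, the brightest PYGM probe set 0.60, PGM1 and LDHA 0.85 each, PGK1 1.05 and PFKM 1.44. TPI1 and GPI had more room, at 1.81 and 2.05. The dimmest probe set inside the mark was GPI, 0.01 above it, and the brightest outside it was a PYGM probe set 0.54 below it.

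The residual spread of a probe set, which is the SD left after pig and time, was smaller at the top of the scale than elsewhere. By decile of mean level, its median was 0.111 in the dimmest decile, 0.146 in decile 5 and 0.0899 in the brightest decile. It was 0.0191 at the median of the 7 enzyme probe sets among the brightest 0.2% of all, against 0.0315 for the 41 other probe sets of that level. Between the 99th percentile and that level the median was 0.0919 for 6 enzyme probe sets and 0.0546 for 186 others. Over all probe sets tested it was 0.126. Those brightest enzyme probe sets, of GAPDH, ENO3, PYGM, LDHA and PGM1, thus sat where the arrays varied little, as did non-members of that level.

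**Figure D1:**
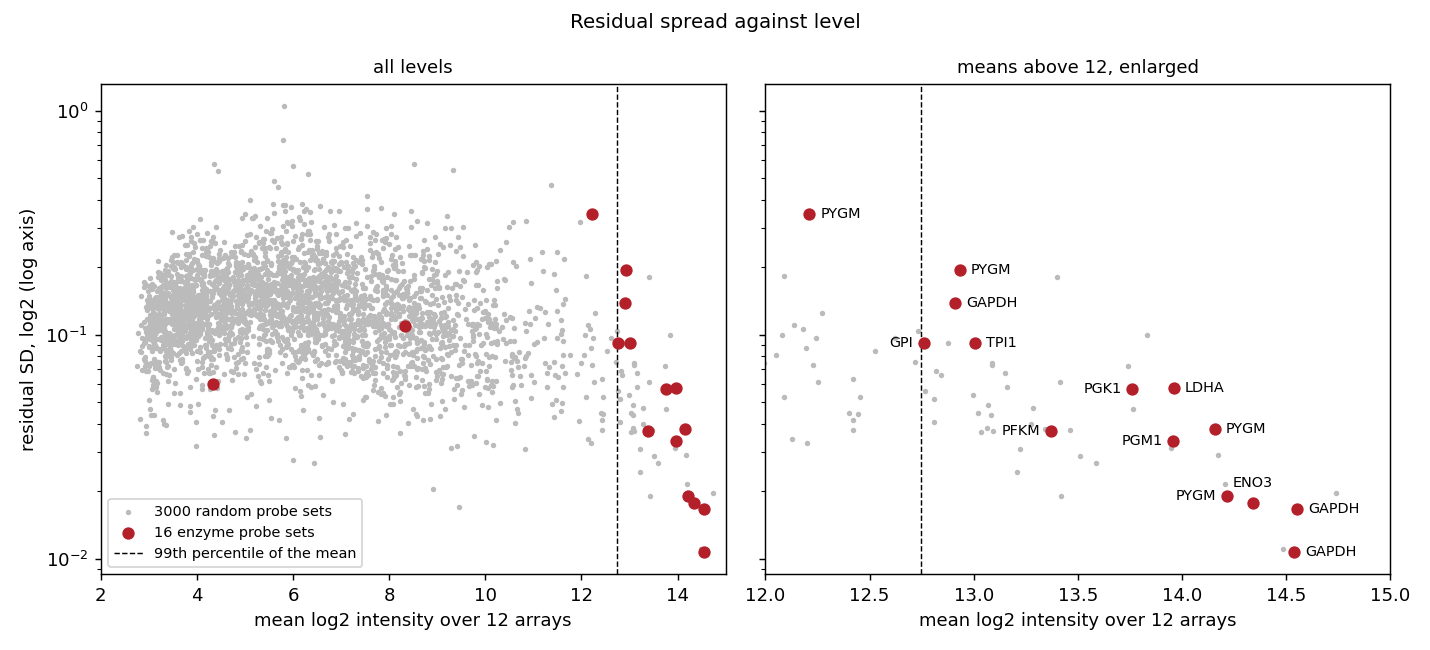
Residual SD (log2, log axis) against mean log2 intensity over 12 arrays for the 16 tested enzyme probe sets (red) and a random draw of other probe sets (grey), at all levels on the left and enlarged above a mean of 12 on the right. The dashed line marks the 99th percentile, 12.75; 13 enzyme probe sets lie at or right of it, and the spread is smallest near the top of the scale.

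Glycogen phosphorylase of muscle, encoded by PYGM, splits glucose 1-phosphate from glycogen, and phosphoglucomutase, encoded by PGM1, turns that product into glucose 6-phosphate. The brightest PYGM probe set read 14.18, 14.25 and 14.21 in pigs 1, 2 and 3 at 20 min, 14.22, 14.26 and 14.19 at 2 h, 14.22, 14.28 and 14.18 at 6 h, and 14.20, 14.24 and 14.15 at 24 h. Pig 2 was the highest at every time, and the times overlapped. Its difference between 24 h and 20 min was -0.02 ± 0.04 (SD over 3 pigs, limma adjusted p = 0.944), a sign that turned to 0.01 without pig 3. PGM1 ranged only between 13.91 and 14.01 over the 12 arrays, with a difference at 24 h of -0.02 ± 0.06 (adjusted p = 0.909) that was 0.01 without pig 2.

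The 4 PYGM probe sets did not vary alike. The second brightest lay between 14.05 and 14.25, a range of 0.20 against 0.13 for the first. By its name its probes can match more than 1 transcript. It was lower than at 20 min in 3 of 3 pigs at each later time. The differences were -0.05 ± 0.07 at 2 h, -0.08 ± 0.05 at 6 h and -0.05 ± 0.04 at 24 h (SD over 3 pigs, limma adjusted p = 0.863, 0.764 and 0.778). The remaining 2 varied more. The dimmest PYGM probe set read 12.23, 12.49 and 12.53 in pigs 1, 2 and 3 at 20 min, 12.30, 11.40 and 12.38 at 2 h, 12.31, 12.46 and 12.31 at 6 h, and 11.95, 12.28 and 11.91 at 24 h. The 2 h array of pig 2 stood lowest, and at 24 h each pig read below its own 20 min value. The times overlapped, since the 24 h value of pig 2 lay above the 20 min value of pig 1. The difference was -0.37 ± 0.22 between 24 h and 20 min (SD over 3 pigs, limma adjusted p = 0.476), and -0.39 ± 0.61 between 2 h and 20 min (adjusted p = 0.659). The third brightest differed by -0.22 ± 0.19 at 24 h and was lower in 3 of 3 pigs (adjusted p = 0.491).

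In the dimmest PYGM probe set the 2 h array of pig 2 stood apart. The difference between 2 h and 20 min was -1.09 in pig 2, while it was 0.07 in pig 1 and -0.15 in pig 3. Without the 2 h array of pig 2, its 2 h difference was -0.01, and that of the third brightest was 0.09 in place of -0.11. For the third brightest, the 24 h array of pig 3 was as low, with a difference from 20 min of -0.44 in that pig, as was the 2 h array of pig 2 with -0.44. Leaving out a 2 h array cannot move the estimates at 24 h, only their spread. The unadjusted limma p-values at 24 h were then 0.00252 for the dimmest and 0.0300 for the third brightest, and neither passed after adjustment (adjusted p = 0.213 and 0.317). Without the 24 h array of pig 3 the differences at 24 h were -0.23 and -0.13.

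Some signs of RNA quality moved with these values and others did not. On these arrays a control gene is read near its 3′ and its 5′ end, and the 3′ signal exceeds the 5′ signal by more as RNA is broken. For EF1A this gap was 1.11 in the 2 h array of pig 2 and lay between 0.23 and 0.86 in the other 11 arrays. It averaged 0.72 ± 0.12 at 24 h and 0.45 ± 0.20 at 20 min (SD, n = 3). In pig 2 it was 0.61 at 24 h and 0.63 at 20 min, and the dimmest PYGM probe set differed by -0.20 between them. The dimmest PYGM probe set minus the brightest was lowest in the 2 h array of pig 2, at -2.86. Next came the 24 h arrays of pigs 1 and 3, at -2.25 and -2.24, with the next widest EF1A gaps, 0.86 and 0.70. It was highest, -1.68, in the 20 min array of pig 3, where the EF1A gap was narrowest, 0.23. The mean gap of actin was 2.25 at 24 h and 2.31 at 20 min, and that of a GAPDH control group 0.53 and 0.55. In the other 2 GAPDH control groups it was higher at 24 h. It was 0.12 ± 0.03 against 0.10 ± 0.02 at 20 min, and -0.18 ± 0.03 against -0.22 ± 0.02 (SD, n = 3). The GAPDH probe sets behind these gaps averaged between 14.01 and 14.77, near the top of the scale, where a gap may be understated. The 2 h array of pig 2 also had the widest gap of actin, 2.54, and of 2 of the 3 GAPDH control groups, 0.20 and 0.58. In the third GAPDH group, where the sign is turned, it had -0.18 in a range of -0.30 to -0.16. The next widest of the first GAPDH group, 0.15, was in the 24 h array of pig 3. The part of RNA quality in the PYGM values was not tested.

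**Figure D2:**
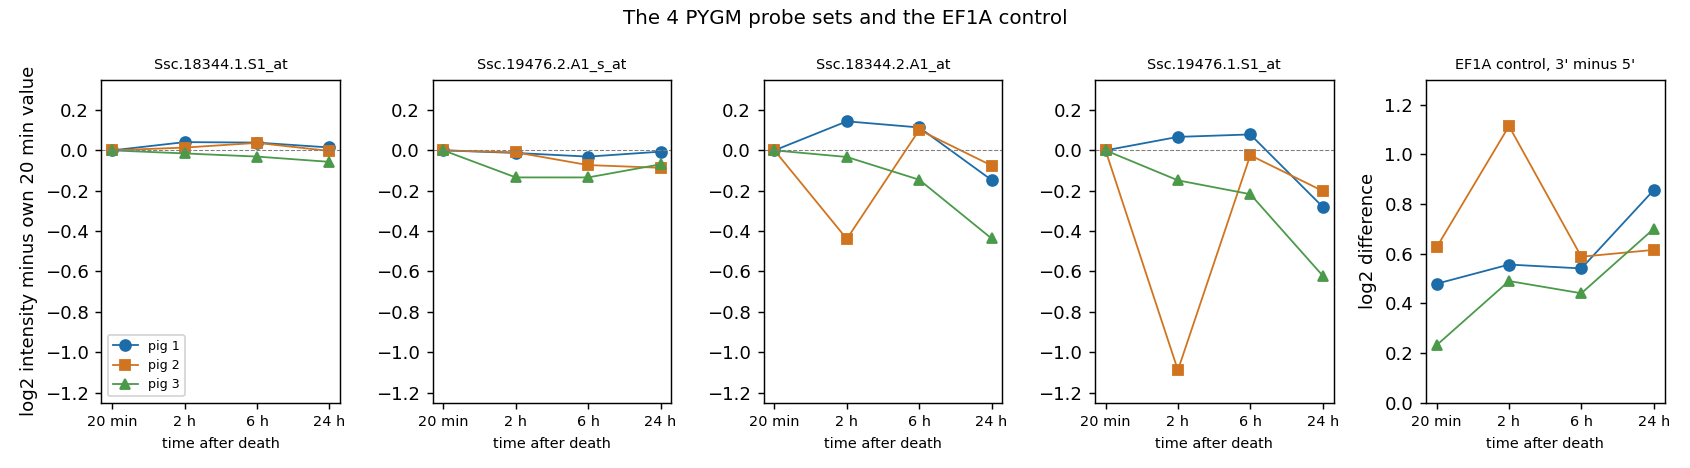
The first 4 panels show the log2 intensity of each PYGM probe set minus the same pig's 20 min value, by time after death and pig; the last panel shows the 3′ minus 5′ log2 difference of the EF1A control. The 2 bright probe sets vary less than the 2 dimmer ones. The dimmer ones read low in pig 2 at 2 h, the array with the EF1A difference of 1.11, and in pig 3 at 24 h.

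The upper steps of glycolysis are carried by glucose 6-phosphate isomerase (GPI) and by phosphofructokinase of muscle (PFKM), the main point of control of the pathway. GPI read 12.86, 12.84 and 12.77 in pigs 1, 2 and 3 at 20 min, 12.91, 12.72 and 12.74 at 2 h, 12.87, 12.66 and 12.72 at 6 h, and 12.86, 12.71 and 12.44 at 24 h. Pig 1 read alike at all times, pig 2 read lower from 2 h on, and pig 3 was lowest at 24 h. GPI had the largest difference between 24 h and 20 min among the brightest probe sets, -0.16 ± 0.17 (SD over 3 pigs, 95% interval -0.35 to 0.04, limma adjusted p = 0.462). In pigs 1, 2 and 3 it was -0.002, -0.13 and -0.34, and without the 24 h array of pig 3 it was smaller, at -0.06. PFKM ranged between 13.26 and 13.50, pig 1 being the highest at all 4 times, with a difference at 24 h of -0.06 ± 0.04 (adjusted p = 0.758).

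Triosephosphate isomerase, the product of TPI1, interconverts the 2 triose phosphates so that the whole sugar can be used. TPI1 read 13.21, 12.89 and 12.87 in pigs 1, 2 and 3 at 20 min, 13.30, 12.86 and 13.03 at 2 h, 13.32, 12.97 and 12.95 at 6 h, and 13.17, 12.87 and 12.61 at 24 h. Pig 1 was apart from the others at every time, and the 24 h portion of pig 3 was the lowest of the 12. Between 24 h and 6 h the difference was -0.20 ± 0.13, lower in 3 of 3 pigs. The unadjusted limma p was 0.0463 and the adjusted p 0.617. With any single pig left out the unadjusted p was between 0.0625 and 0.249. Against 20 min, the 24 h difference was -0.11 ± 0.14 (adjusted p = 0.606), and it was -0.02 without the 24 h array of pig 3.

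GAPDH encodes glyceraldehyde 3-phosphate dehydrogenase, the step that makes NADH, and is widely used as a reference transcript. Its brightest probe set read 14.59, 14.58 and 14.57 in pigs 1, 2 and 3 at 20 min, 14.58, 14.51 and 14.53 at 2 h, 14.58, 14.53 and 14.53 at 6 h, and 14.60, 14.54 and 14.51 at 24 h. All 12 values fell within 0.09, and its difference at 24 h was -0.03 ± 0.03 (SD over 3 pigs, adjusted p = 0.875). By its name, the probes of this brightest probe set can match more than 1 transcript. The next brightest spanned 0.08. The means of the 9 control probe sets lay between 13.81 and 14.77, and the range of each over the 12 arrays between 0.07 and 0.30.

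The 3 dimmer GAPDH probe sets varied more. The brightest of them lay between 12.44 and 13.24, lowest in the 24 h array of pig 3, with a difference at 24 h of -0.11 ± 0.13 (adjusted p = 0.684). The next averaged 8.34 and spanned 0.36. The dimmest GAPDH probe set had a mean of 4.34, at percentile 26.8, and was the one member called unadjusted in the F test. There its limma p was 0.0196 and its adjusted p 0.573. It read 4.52, 4.21 and 4.07 in pigs 1, 2 and 3 at 20 min, 4.64, 4.46 and 4.27 at 2 h, 4.36, 4.25 and 3.98 at 6 h, and 4.68, 4.32 and 4.26 at 24 h. The times overlapped, and within each pig the 2 h and 24 h portions read above the 6 h one. GAPDH has many near-identical copies in mammalian genomes, and which of them a dim probe set reads is not known from the files.

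The later steps likewise gave no call. PGK1, whose product phosphoglycerate kinase makes ATP, ranged between 13.62 and 13.85, lowest in the 2 h array of pig 2, and its difference at 24 h was -0.06 ± 0.09 (adjusted p = 0.744). Without the 24 h array of pig 3 that difference was -0.02. ENO3, the muscle enolase, read 14.42, 14.37 and 14.35 in pigs 1, 2 and 3 at 20 min, 14.32, 14.33 and 14.31 at 2 h, 14.35, 14.34 and 14.31 at 6 h, and 14.38, 14.33 and 14.30 at 24 h. Each pig was highest at 20 min, although the pigs' values overlapped between times. Its 24 h difference was the most even of all, with -0.04, -0.04 and -0.05 in the 3 pigs (limma adjusted p = 0.819). For so bright a probe set, limma's shared prior sets the SE at 0.0710, well above its own spread; with a prior that follows the level the SE was 0.0368 and the adjusted p 0.632.

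LDHA, the muscle form of lactate dehydrogenase, reduces pyruvate to the lactate that accumulates in a carcass. It read 14.00, 14.01 and 14.00 in pigs 1, 2 and 3 at 20 min, 14.01, 13.98 and 13.97 at 2 h, 14.04, 13.88 and 13.92 at 6 h, and 14.02, 13.92 and 13.80 at 24 h. The 3 pigs lay together at 20 min, with an SD of 0.0049, and spread out later, with an SD of 0.111 at 24 h. At 24 h pig 1 was the highest and pig 3 the lowest, and the times overlapped. The difference at 24 h was -0.09 ± 0.11 (SD over 3 pigs, adjusted p = 0.634). It was -0.04 without the 24 h array of pig 3, and -0.03 with that pig left out.

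**Figure D3:**
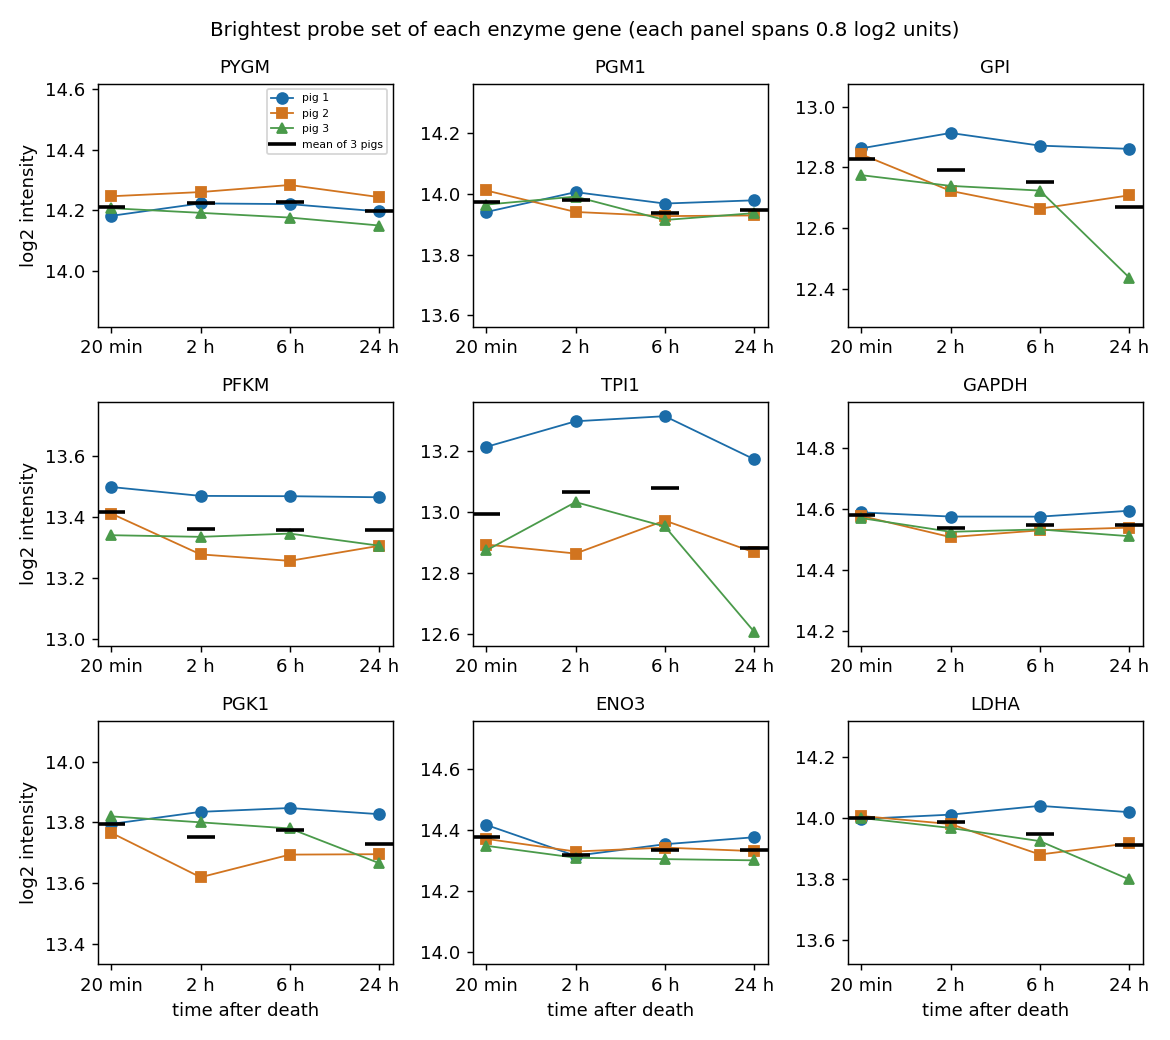
Log2 intensity of the brightest probe set of each of the 9 genes by time after death, 1 line per pig, with the mean of 3 pigs as a black bar; every panel spans 0.8 log2 units. GAPDH, ENO3, PYGM and PGM1 are nearly flat. GPI, TPI1 and LDHA are lowest in the 24 h portion of pig 3, as are ENO3 and PYGM within their narrow ranges.

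By 24 h the small differences leaned one way without passing. Of the 16 probe sets, 15 had a lower mean at 24 h than at 20 min, among 11508 lower of all 23999, and all 9 brightest ones were among them. The median of the 16 was -0.06, against 0.01 for all probe sets and -0.01 for the 227 non-members at or above the 99th percentile. The median was 0.01, -0.08 and -0.09 in pigs 1, 2 and 3, so that the lean was not present in every pig. In limma with pig as a block, 0 of 16 passed at 24 h against 20 min, and 0 had an unadjusted p under 0.05, against 0.00417% and 13.1% of all probe sets. Without pig 2, 12 of 16 were lower, and without the 24 h array of pig 3, 13 of 16. The median was -0.03 without that array. The 24 h array of pig 3 held the lowest value of 8 of the 16 probe sets. In pig 3 the macrophage markers averaged 5.67 at 24 h and 7.43 at 20 min, and the slow fibre markers 13.90 and 13.48. Its fast fibre markers averaged 14.03 and 14.14, the lowest and the highest of the 12 arrays. The EF1A gap of pig 3 was 0.70 at 24 h and 0.23 at 20 min. The part of these markers and of the EF1A gap in the lower values at 24 h was not tested.

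**Figure D4:**
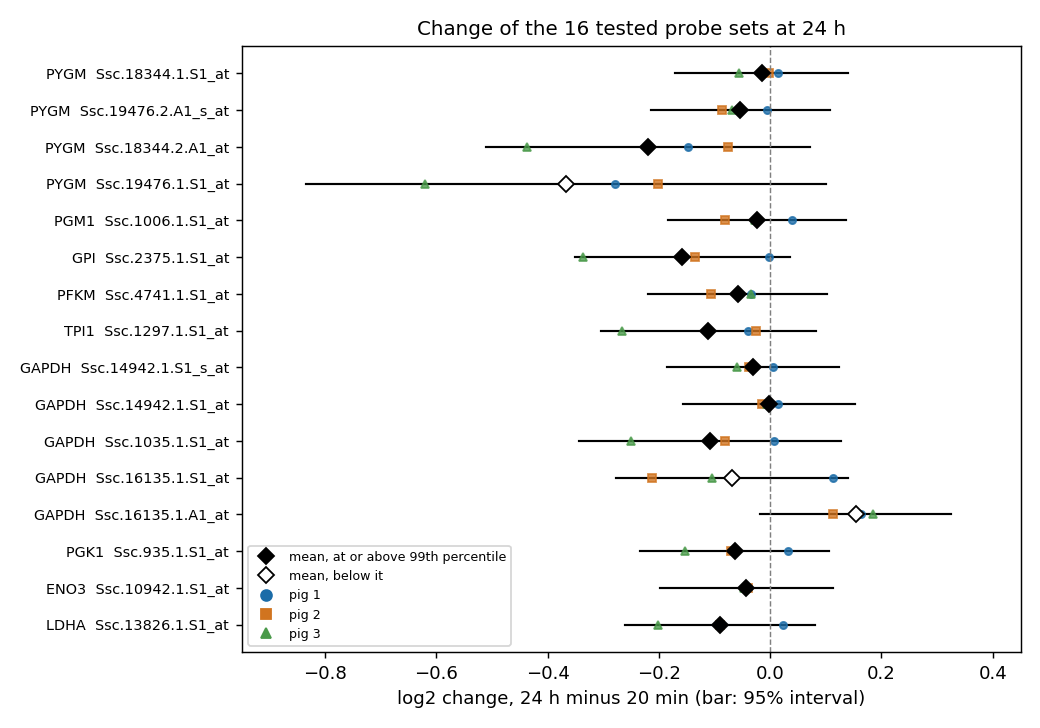
Log2 difference between 24 h and 20 min for the 16 tested probe sets, as the mean of 3 pigs (diamond; filled at or above the 99th percentile of level) with limma's 95% interval, and the value of each pig. Every interval spans 0 with limma's shared prior, and the dimmest PYGM probe set has the lowest mean, -0.37. With a prior that follows the level, the SE was 0.0357 in place of 0.0709 for the brightest GAPDH probe set. For GPI it was 0.0655 in place of 0.0884, with a limma unadjusted p of 0.0301 and an adjusted p of 0.329.

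The other pairs of times gave at most 2 unadjusted calls among the 16. At 2 h against 20 min, 0 of 16 passed (0% of all probe sets did), and 1 had an unadjusted p under 0.05, against 7.95% of all. This was the dimmest GAPDH probe set, with a difference of 0.19 ± 0.06. At 6 h against 20 min none of the 16 had an unadjusted p under 0.05, against 8.83% of all, and the largest difference was 0.09 in size. The same GAPDH probe set gave the 1 unadjusted call at 6 h against 2 h (-0.26 ± 0.05), where the share of all probe sets was 2.26%. At 24 h against 2 h the count was 0, against 5.23%. At 24 h against 6 h it was 2, that GAPDH probe set higher by 0.22 ± 0.13 and TPI1 lower, with 8.08% of all probe sets called. The comparisons with 20 min share the 20 min arrays, and 0 of the 16 had an adjusted p under 0.05 in any of the 6, the smallest being 0.423.

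For most of these probe sets, more of the variation lay between pigs than between times. Of the sum of squares of a probe set over the 12 arrays, the share by pig had a median of 55.5% over the 16 probe sets and the share by time one of 25.5%. The share by pig was the larger in 12 of 16. TPI1 had 74.5% by pig and 15% by time, and PFKM 79.9% and 9.6%. Pig 1 was the highest pig at all 4 times for 7 probe sets, namely GPI, PFKM, TPI1 and 4 of the 5 GAPDH probe sets. ENO3 was the one brightest probe set besides PGM1 with more by time, 47%, than by pig, 38.5%. The remainder, by neither pig nor time, ran from 4.5% in the dimmest GAPDH probe set to 63.6% in the dimmest PYGM probe set. The sums of squares were not divided by their degrees of freedom, of which time has more than pig. Noise alone also gives time a share. These shares were computed for the enzyme probe sets only, so they do not set them apart from other probe sets. Each pig is 1 animal, so the shares describe these 3 pigs.

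The members resembled each other to differing degrees. With values centred within each pig, the Pearson r of GPI to the mean of the other 8 brightest probe sets was 0.946, of PGK1 0.883 and of LDHA 0.839, over 12 arrays that share pigs. ENO3 was the least alike, at 0.204, and PYGM stood at 0.479. The mean profile of the 9 spanned only 0.14, with its lowest value, -0.09, in the 24 h array of pig 3. Among 6756 other genes, the profiles most like it were those of TMOD4 (r = 0.956), which caps actin filaments in muscle, PDCD6IP (0.952), SPR (0.940), the calmodulin gene CALM2 (0.931) and FAM46C (0.929). TMOD4 lay at percentile 99.1 of level and its 24 h difference was -0.22. The levels of the other 4 ranged between percentiles 52.0 and 96.2.

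The rest of the pathway was read from a list of 48 other genes, mostly of glycolysis, glycogen turnover and sugar or lactate transport. It also held the related genes FBP1, FBP2, GPD1, PRKAA2, PRKAG3 and HIF1A. Of the 48, 31 had a probe set with a single symbol, and each was read from its brightest one. At 24 h against 20 min, 0 of 31 passed over all probe sets in limma. At an unadjusted p under 0.05 there were 6, or 19.4%, against 13.1% of all: 5 lower, against 6.67% of all probe sets, and 1 higher, against 6.41%. The median difference of the 31 was -0.06, and by pig it was -0.08, 0.04 and -0.16. Without the 24 h array of pig 3 the count was 3, and without the 20 min array of that pig it was 2. Over all 43 probe sets of these genes there were 7 unadjusted calls, or 16.3%, 6 lower and 1 higher. Of the 43, 22 had a lower mean at 24 h and 21 a higher one, with a median difference of -0.04.

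Among the lower genes, BPGM, which makes and removes 2,3-bisphosphoglycerate, differed at 24 h by -0.40 ± 0.13 (SD over 3 pigs, limma adjusted p = 0.193) and was lower in 3 of 3 pigs. The aldolase gene ALDOC differed by -0.40 ± 0.44, mostly through pig 3 at -0.89 (adjusted p = 0.299). PRKAA2, a catalytic subunit of the energy sensor AMPK, differed by -0.33 ± 0.09 (adjusted p = 0.222) and the glycogen-binding protein gene STBD1 by -0.25 ± 0.08 (adjusted p = 0.295). Both were lower in all pigs. The fifth was GYG1, whose product glycogenin primes glycogen, at -0.17 ± 0.05 (adjusted p = 0.365).

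On the side of storage, GYS1, the glycogen synthase of muscle, was the higher one. Its log2 difference from 20 min was 0.34 ± 0.22 at 2 h, 0.42 ± 0.26 at 6 h and 0.29 ± 0.28 at 24 h (SD over 3 pigs, limma adjusted p = 0.579, 0.488 and 0.300). By pig the 24 h difference was -0.0004, 0.33 and 0.55, so it rested on pigs 2 and 3. At 2 h there were 3 unadjusted calls, or 9.68% of the 31 against 7.95% of all probe sets: GYS1, the phosphorylase kinase subunit PHKG2 (0.23 ± 0.20) and BPGM (-0.21 ± 0.15). At 6 h there were 2, or 6.45% against 8.83% of all, GYS1 and the insulin-responsive glucose carrier SLC2A4 (0.26 ± 0.05). At 24 h against 6 h BPGM alone of the 31 brightest probe sets, 3.23% against 8.08% of all, was called at an unadjusted p, at -0.28 ± 0.18. Over all 43 probe sets of these genes the unadjusted calls were 3 at 2 h and 4 at 6 h against 20 min, or 6.98% and 9.3%. At 24 h against 6 h they were 4, or 9.3%, 2 lower and 2 higher.

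Neighbouring steps of glycolysis were read from PGAM2, PKM and LDHB, none of which passed. PGAM2, the muscle phosphoglycerate mutase between PGK1 and ENO3, averaged 14.00, at percentile 99.8, and differed at 24 h by -0.16 ± 0.06, lower in 3 of 3 pigs (adjusted p = 0.388). PKM, pyruvate kinase, differed by -0.10 ± 0.07 (adjusted p = 0.607); its probe set lay at 8.97, and what part of the muscle transcript it reads is not known from the files. LDHB, the lactate dehydrogenase form of heart and slow fibres, differed by 0.25 ± 0.41 (adjusted p = 0.441), with -0.19, 0.31 and 0.62 in pigs 1, 2 and 3. The part of the slow fibre markers of pig 3 in the LDHB values was not tested. For HK2, which phosphorylates incoming glucose, no probe set is named in the annotation used here.

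**Figure D5:**
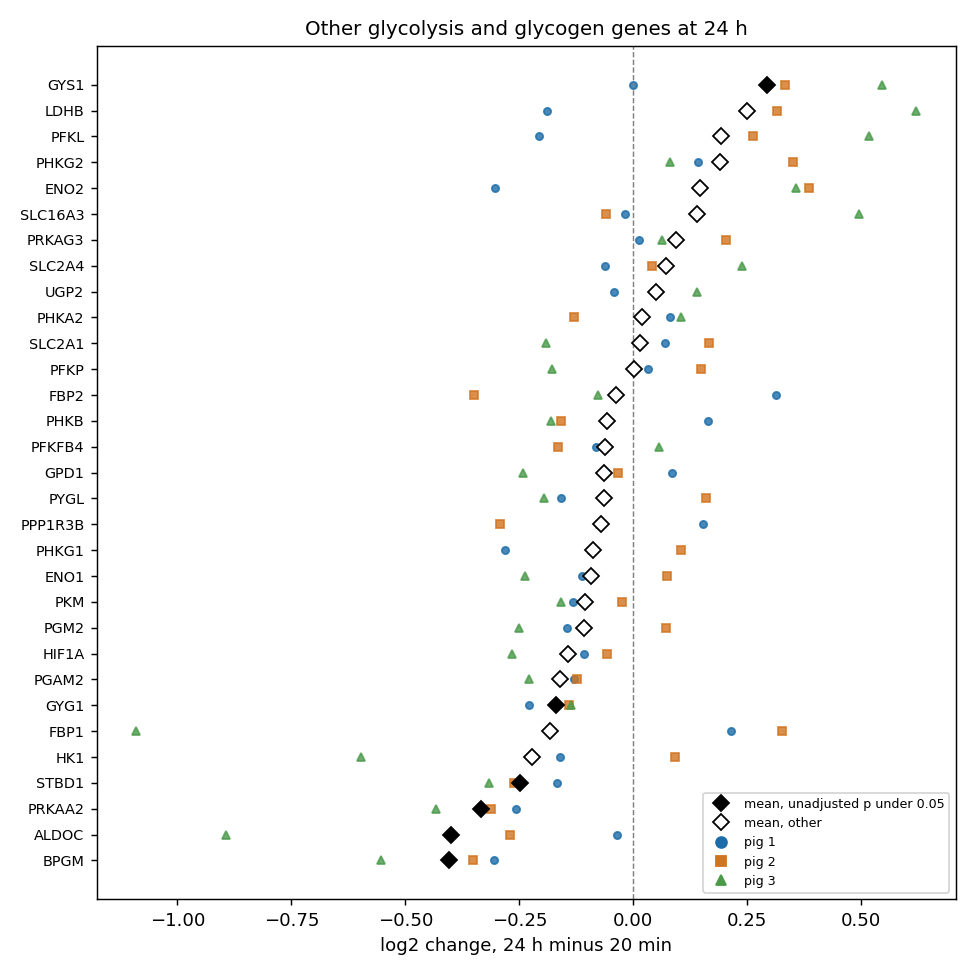
Log2 difference between 24 h and 20 min for the 31 other glycolysis and glycogen genes, in order of size, as the mean of 3 pigs (diamond; filled where the unadjusted p is under 0.05) with the value of each pig. GYS1 has the highest mean, 0.29, and BPGM the lowest, -0.40.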

How the data were processed

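Biotin-labelled RNA of 12 muscle portions was read on porcine Affymetrix arrays of 1 colour, per the labels. The authors deposited log2 intensities, 1 per probe set and array, which the submitters' processing notes credit to RMA (affy), with versions not given in the sources used here. RMA gives all arrays 1 distribution, so a shift of all transcripts alike would not show. Signal over background is not given in the table used.

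Of 24123 probe sets, 124 controls were left out and 23999 were tested with no filter. Symbols came from the 2016 platform annotation (10099 probe sets with 1 symbol, 198 with several, 13826 with none); the 16 member symbols matched Sscrofa11.1 RefSeq genes by gene ID. No build is named for the array, so no coordinates are given. Groups and pigs were taken from the titles. In R 4.3.3, limma 3.58.1 (statmod 1.5.0 for the random block) fitted the 4 times with pig as a fixed block (6 residual and 5.67 prior degrees of freedom); tests were two-sided, with p-values adjusted by Benjamini and Hochberg's method over all probe sets within each of 6 comparisons, with 0.05 as the threshold. The pigs pair the arrays by design; over the 18 pairs of arrays that share a pig, deviations from the time means had an r of 0.409 to 0.656. The fit was tested on simulated data.

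The probe set of highest mean over the arrays stood for each gene. Named by rule were the 5 genes most like the mean member profile, and PGAM2, PKM, LDHB and HK2. So were the other pathway genes with an unadjusted p under 0.05 (up to 4 in each direction). GYG1, the fifth lower gene, the fast and slow fibre markers and the dimmer PYGM and GAPDH probe sets were named after their values were seen. The members and lists were chosen with earlier results of these data known. Alternatives were pig left out of the model or as a random block, each pig left out, cyclic loess, centring on the brightest 1% of probe sets, leaving out the dimmest 40%, a trended and robust prior, array weights, 1 probe set a gene and leaving out the probe sets near the top of the scale. Leaving out each of 3 single arrays was added after seeing the data.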

Additional observations from a re-analysis of the deposited data

How the results depend on the processing

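None of the 1338 tests of enzyme probe sets over 14 fits had a limma adjusted p under 0.05, and the lowest adjusted p was 0.213. Of the 54 differences of the brightest probe sets, 24 had the other sign in at least 1 of 13 alternatives. At 24 h against 20 min, the PYGM difference ranged from -0.0299 to 0.0058 with 1 pig or array left out; it was highest with pig 3 left out, and 0.0042 with the 20 min array of that pig left out. That of PGM1 ranged from -0.0551 to 0.0052, the highest being that with pig 2 left out. The cause of these shifts was not tested. With signal over background not given, values near the top of the scale limit what a small difference can show.

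Without pig as a replicate block, the counts of enzyme probe sets with an unadjusted p under 0.05 were 0 at 2 h against 20 min, 0 at 6 h against 2 h, 0 at 24 h against 6 h and 0 in the F test. Without the block, the counts of other pathway genes were 1 at 2 h, 1 at 6 h and 2 at 24 h against 20 min, and 0 at 24 h against 6 h. With pig as a random block, the enzyme counts were 0 at 2 h against 20 min, 0 at 24 h against 6 h and 0 in the F test, and the counts of other genes 1 at 6 h against 20 min and 0 at 24 h against 6 h. The block changed no call after adjustment.

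The trended and robust prior gave enzyme counts of 0 at 2 h against 20 min, 1 at 24 h against 20 min (GPI), 2 at 24 h against 2 h and 2 in the F test, and 1 and 3 other genes at 24 h against 2 h and 6 h. Array weights gave 6 other genes at 6 h against 20 min, 1 at 24 h against 2 h and 3 at 24 h against 6 h. Cyclic loess gave 1 other gene at 2 h against 20 min and 1 enzyme probe set at 24 h against 6 h. Centring on the brightest probe sets gave 1 enzyme probe set at 24 h against 6 h, with a median difference of -0.0165 in place of -0.0334. Without the probe sets near the top of the scale only 3 were left, and that median was -0.0975, the value of a dim GAPDH probe set. The dimmest PYGM and the dimmest GAPDH probe sets stood at -0.3129 and 0.2223. Leaving out the dimmest 40% and keeping 1 probe set a gene both removed the dimmest GAPDH probe set; the enzyme counts were then 0 at 2 h against 20 min, 0 at 6 h against 2 h and 1 at 24 h against 6 h, and 0 in the F test without the dimmest 40%.

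Leaving out 1 pig or 1 of 3 arrays, the enzyme counts ranged from 0 to 1 at 2 h, 0 to 0 at 6 h and 0 to 2 at 24 h against 20 min, from 0 to 1 at 6 h against 2 h, from 0 to 4 at 24 h against 2 h, from 0 to 4 at 24 h against 6 h, and from 0 to 3 in the F test. The highest counts at 24 h came without the 2 h array of pig 2 or without pig 2, and included the 2 dimmer PYGM probe sets. The counts of other genes ranged from 1 to 5 at 2 h, 1 to 4 at 6 h and 2 to 8 at 24 h against 20 min, from 0 to 3 at 6 h against 2 h, from 0 to 3 at 24 h against 2 h, and from 0 to 2 at 24 h against 6 h. The median difference of the enzyme probe sets ranged from -0.0388 to 0.0108 at 6 h against 2 h and from -0.0461 to 0.0088 at 24 h against 6 h.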
